A study of Zea mays with 24 samples.

Results

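Iron withdrawal was examined in maize roots that were also without zinc, by setting 3 arrays of –Fe–Zn roots against 3 arrays of –Zn roots. These 6 of the 24 arrays of the series were chosen by their labels alone, and the 17621 of 17734 probe sets that are not control probe sets of the manufacturer were tested. The seedlings belonged to the inbred SKV-616, were grown in hydroponic solution and were sampled after 12 days of stress, with 3 replicates per group. Neither the labels nor the methods say that these came from separate cultures, so p-values measure the spread between these samples, which may be technical. By the array titles, –Fe–Zn roots received neither metal and –Zn roots received iron but no zinc. –Fe roots received zinc but no iron, and control (+Fe+Zn) roots received both. The study's table of fold changes conflicts with these titles. It reports NAS3 (nicotianamine synthase 3) as strongly raised in –Fe–Zn roots and lowered in –Fe roots. The arrays titled –Fe–Zn averaged 7.75, below 8.96 in control roots. For NAS3, ys1 and carbonic anhydrase its –Fe root values instead match the arrays titled –Fe–Zn. The conflict was not resolved, and groups below follow the titles. Shoots of the same treatments made up the remaining arrays, and all groups shared 1 genotype and 1 time point. RNA was measured on the Affymetrix GeneChip Maize Genome Array, where a probe set is a group of short oligonucleotides that read 1 transcript. Values are on the log2 scale, so that a difference of 1 is 2-fold, and the lowest value in the table, 2.24, is the floor of detection. A single gene was called where limma gave an adjusted p under 0.05, with Benjamini and Hochberg's method over all 17621 probe sets.

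The arrays carried the tissue that their labels name. Over 22 probe sets of leaf markers (rubisco, chlorophyll-binding and photosystem proteins, C4 enzymes), the array means lay between 4.30 and 4.54 in –Fe–Zn roots and between 4.21 and 4.29 in –Zn roots, against 8.35 to 11.18 in shoots. Defining root markers are few on this annotation: the 4 available averaged 4.05 to 4.64 on the –Fe–Zn arrays and 5.62 to 5.85 on the –Zn arrays, against 2.62 to 3.23 in shoots. In RNA from whole roots, fewer cells of a type and less RNA per cell cannot be told apart.

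Replicate 1 of –Fe–Zn roots stood apart from its group, and for most of the genes below whose call changes without it the value without it is given. Correlations between –Fe–Zn replicates ranged from 0.954 to 0.986, against 0.996 to 0.998 between –Zn replicates, and the median SD of a probe set was 0.248 in –Fe–Zn roots and 0.0636 in –Zn roots. The –Fe–Zn arrays also differed from the –Zn arrays in control probe sets. A probe set of the hybridisation spike BioB read 12.46 ± 2.29 on the –Fe–Zn arrays and 3.79 ± 0.19 on the –Zn arrays (SD, n = 3 each), and one for 18S ribosomal RNA read 8.95 ± 1.15 on the –Fe–Zn and 4.41 ± 0.90 on the –Zn arrays. On the –Fe and control arrays the BioB probe set averaged 5.21 and 5.40, and that for 18S 4.62 and 5.18. For both, the –Fe–Zn arrays stood apart from all other root groups. The 3′ probe sets of cyclophilin, ubiquitin and Gapdh differed by −0.26, 0.13 and 0.03 on the log2 scale, those of ef1a and actin by −1.07 and −0.98. Replicate 1 of –Fe–Zn roots was low toward the 5′ end of transcripts, which bears on RNA quality: the 5′ probe set of cyclophilin read 2.40, 9.32 and 9.38 on the –Fe–Zn arrays and 5.75, 6.21 and 2.34 on the –Zn arrays, and that of ubiquitin 3.17, 7.11 and 7.77 on the –Fe–Zn and 5.58, 5.65 and 5.07 on the –Zn arrays. The part of these differences in the results below was not tested. How the –Fe–Zn arrays were handled cannot be told apart from their treatment in any comparison that uses them.

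Grasses acquire iron by releasing phytosiderophores of the mugineic acid family, which bind ferric iron in the soil and are taken up again as the complex. The pathway begins with S-adenosylmethionine, which nicotianamine synthase condenses into nicotianamine, and deoxymugineic acid synthase completes it. YS1 (yellow stripe 1) is the maize transporter of the ferric complex, and its loss leaves leaves striped with chlorosis. Nicotianamine also carries iron and zinc inside the plant, ZIP and NRAMP proteins move divalent metals across membranes, and ferritin stores surplus iron in plastids.

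–Fe–Zn roots differed from –Zn roots in both directions, and most of the calls on the values as deposited were falls. With the cut-off that the study's methods set, a change of 2-fold or more with an unadjusted p under 0.05, 430 probe sets were higher in –Fe–Zn roots (2.44% of those tested) and 1795 were lower (10.2%). After adjustment, without a limit on fold, 590 were higher (3.35%) and 2285 were lower (13.0%). The share of rises depended on scaling. Rises made up 19.3% of the calls as deposited, and 46.4% (746 higher, 862 lower) after quantile normalization, which gives every array the same distribution of values. With adjusted p-values, quantile normalization gave 1153 higher (6.54%) and 1667 lower (9.46%). Centring every array on its median shifted all differences up by 0.24 and gave 756 higher and 1229 lower, or 6281 higher and 2384 lower with adjusted p-values, a turn to 72.5% rises. The fall was spread over all but the dimmest probe sets: the median difference was 0.03 below a mean log2 value of 3 and lay between −0.46 and −0.51 for the 4 classes above 5. Without –Fe–Zn replicate 1 the adjusted counts were larger, at 1235 higher and 3802 lower. Without any one –Zn array they were smaller, at 259 to 284 higher and 950 to 1051 lower, and 44 of the 87 calls checked this way (the genes named by rank, the iron and methionine lists and up to 4 of each other list) held whichever of the 6 arrays was left out. Differences below are as deposited, and the quantile-normalized value is given for many of the calls or signs that it changes. A call given without it may still depend on scaling, since 67 of the 87 calls held after quantile normalization.

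**Figure D1:**
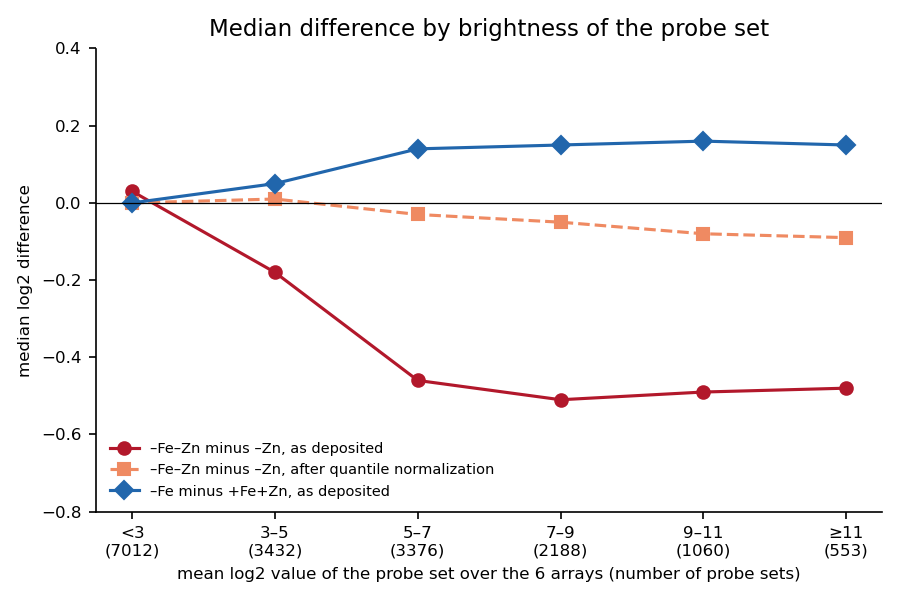
Median log2 difference of probe sets (y axis) by their mean log2 value over the 6 arrays (x axis, number of probe sets in brackets). Circles show –Fe–Zn minus –Zn roots as deposited, squares the same after quantile normalization and diamonds –Fe minus +Fe+Zn roots. The deposited –Fe–Zn difference falls to about −0.5 above a mean of 5, while the quantile-normalized one stays between 0.01 and −0.09.

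The genes of iron acquisition moved in both directions: ys1, 2 probe sets of nas1 and 2 other transporters rose, and NAS3 and NRAMP1 fell. Of 18 probe sets, 17 were above background in some group, 5 were higher and 2 were lower, where 3.35% of all probe sets were higher and 13.0% lower, with a median difference of 0.12 against 0.00 over all probe sets. After quantile normalization the counts were again 5 and 2 and the median was 0.49. The plot of iron genes by array shows the values that follow.

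ys1 read 6.76, 6.88 and 6.50 on the –Fe–Zn arrays, against 2.24, 2.30 and 3.06 on the –Zn arrays. The groups lay far apart, with the –Zn roots at or near the floor. The difference was 4.18 ± 0.27 (SE), or 18.1-fold, with an adjusted p of 0.0026. Its means in –Fe and control roots were 4.81 ± 0.15 and 3.61 ± 0.48 (SD, n = 3 each), so that –Fe–Zn roots held the highest level of the 4 root groups and –Zn roots the lowest.

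nas1, a nicotianamine synthase of the root, is read by 4 probe sets. The brightest read 5.91, 7.92 and 7.91 in –Fe–Zn roots, against 4.13, 4.00 and 3.75 in –Zn roots, a difference of 3.28 ± 0.64 (adjusted p = 0.036). Replicate 1 was the lowest of the –Fe–Zn arrays but lay above every –Zn array, and without it the difference was 3.95 (adjusted p = 0.0018). Without any other single array the call was lost, with differences from 2.95 and adjusted p-values up to 0.13. A second probe set rose by 3.25 ± 0.48 (adjusted p = 0.018), a call lost without –Fe–Zn replicate 2 or any one –Zn array (adjusted p up to 0.085). Of the others, one had values of 2.86, 6.17 and 6.14 on the –Fe–Zn arrays and overlapped the –Zn arrays (difference 2.29, adjusted p = 0.24; 3.38 and 0.00067 without replicate 1), and one lay at the floor on every root array. nas2 was at or near the floor in all root groups, with a highest value of 2.46.

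NAS3, another nicotianamine synthase, moved the other way. It read 7.96, 7.67 and 7.62 in –Fe–Zn roots, against 10.01, 10.05 and 9.98 in –Zn roots. The fall of 2.26 ± 0.10 on the log2 scale (4.79-fold, adjusted p = 0.0013) left all –Fe–Zn arrays below all –Zn arrays, and after quantile normalization the difference was −1.64 (adjusted p = 0.0027). The members of 1 enzyme family were therefore split, with nas1 higher and NAS3 lower in the same roots.

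DMAS1, deoxymugineic acid synthase, read 6.96 in –Fe–Zn replicate 1 and 9.73 or more in the others (mean 8.90 ± 1.68, SD), against 7.09, 7.01 and 6.80 in –Zn roots. Replicate 1 lay among the –Zn values while the others were far above them, so the difference of 1.93 ± 0.92 did not pass the test (adjusted p = 0.27). Without replicate 1 it was 2.90, with an adjusted p of 0.0029.

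Among transporters, a gene named for metal ion transmembrane transporter activity (GRMZM2G178190) read 7.97, 7.97 and 8.04 in –Fe–Zn roots, against 5.30, 5.23 and 5.53 in –Zn roots. It rose by 2.64 ± 0.09 (adjusted p = 0.00081), with the smallest error of the rises in this list. An oligopeptide transmembrane transporter (GRMZM2G148800) read 5.75, 6.61 and 5.64 on the –Fe–Zn arrays, against 3.34, 3.49 and 2.70 on the –Zn arrays, a rise of 2.82 ± 0.37 (adjusted p = 0.013), with adjusted p-values of 0.05 to 0.058 without any one –Zn array. Proteins of this family carry small peptides and, in the yellow stripe-like branch, metal complexes.

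NRAMP1, of the family that moves ferrous iron and manganese, was lower, at 6.88, 6.91 and 6.91 in –Fe–Zn roots and 7.96, 7.97 and 7.83 in –Zn roots. The fall of 1.02 ± 0.05 (adjusted p = 0.0013) exceeded the spread in both groups, and the value after quantile normalization was −0.51 (adjusted p = 0.011). The zinc and iron carrier ZIP5 (ZRT-IRT-like protein 5) read 6.84, 5.14 and 5.11 in –Fe–Zn roots, against 7.90, 7.93 and 8.09 in –Zn roots. These groups did not overlap, yet the difference of −2.28 ± 0.54 missed the threshold (adjusted p = 0.059); without replicate 1 it was −2.84 (adjusted p = 0.0012).

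The remaining members of the list did not pass. ZIP4 (zinc transporter 4) differed by −0.38 ± 0.21 and a ferric-chelate reductase by 0.06 ± 0.22. A metal ion transporter and a heavy metal transport protein differed by 0.13 and 0.05. The 2 cation transmembrane transporters differed by 0.79 (GRMZM5G862882) and −1.07 (GRMZM2G036908), and –Fe–Zn values of the second were as far apart as 8.98 and 5.09.

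**Figure D2:**
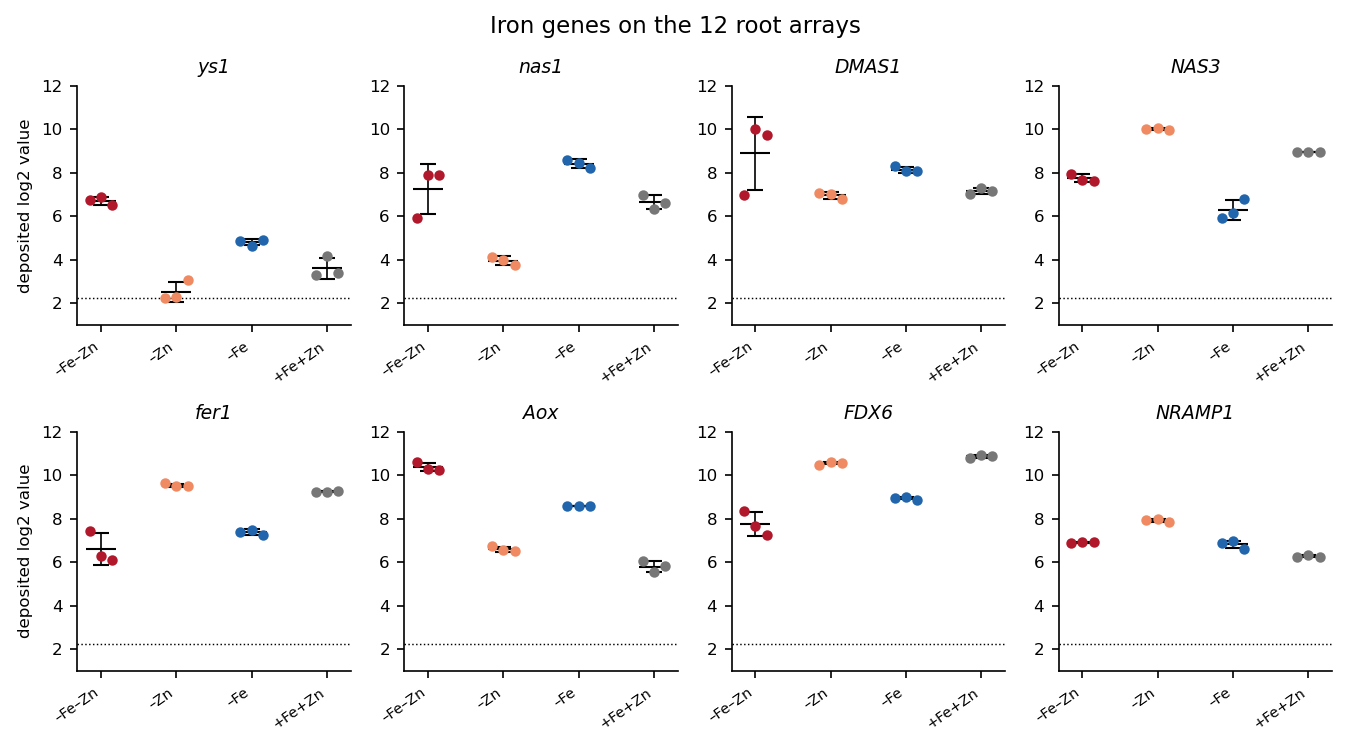
Deposited log2 values (y axis) of 8 iron genes on the 12 root arrays, by group (x axis: –Fe–Zn, –Zn, –Fe, +Fe+Zn). Points are arrays in replicate order, bars are mean ± SD (n = 3) and the dotted line is the floor at 2.24. ys1 and Aox are highest in –Fe–Zn roots, fer1 and FDX6 are lowest there, and nas1 and DMAS1 have 1 low –Fe–Zn array.

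Of 14 probe sets of the methionine cycle, which makes and spends S-adenosylmethionine, spds2 was higher and MMT1 and PEAMT were lower, with a median difference of −0.10. Over all probe sets 3.35% were higher and 13.0% lower. spds2, a spermidine synthase, rose by 0.65 ± 0.08 (adjusted p = 0.011), with 9.68, 9.91 and 9.71 in –Fe–Zn roots and 9.04, 9.15 and 9.17 in –Zn roots. MMT1, a methionine S-methyltransferase, fell by 0.83 ± 0.06 (adjusted p = 0.0029; −0.39 and adjusted p = 0.07 after quantile normalization). PEAMT, which methylates phosphoethanolamine on the way to choline, read 6.24, 7.22 and 7.28 in –Fe–Zn roots and 8.91, 8.97 and 8.93 in –Zn roots, and fell by 2.02 ± 0.32 (adjusted p = 0.021; −1.47 and adjusted p = 0.054 after quantile normalization). Its call was lost without any one –Zn array (adjusted p up to 0.095), and that of spds2 without –Zn replicate 1 or 2 (0.051 and 0.055).

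IDI2, a methylthioribose phosphate isomerase that is known in barley as a gene of iron-deficient roots, read 9.59, 11.04 and 11.14 in –Fe–Zn roots, against 9.17, 9.24 and 9.12 in –Zn roots. All –Fe–Zn arrays were above all –Zn arrays, but the difference of 1.42 ± 0.47 did not pass (adjusted p = 0.13; 1.91 and adjusted p = 0.0014 without replicate 1). The S-adenosylmethionine synthetases differed by 0.04 (sam2) and −0.43, S-adenosylmethionine decarboxylase by 0.18 and adenosylhomocysteinase by −1.37, and none of these passed. Without replicate 1 sam2 passed (0.59, adjusted p = 0.017), and the difference for adenosylhomocysteinase was −0.59 (adjusted p = 0.056). An O-methyltransferase differed by −0.23 and cgs1, the cystathionine gamma-synthase, by −0.33. The 4 homocysteine S-methyltransferases differed by between −0.28 and 0.29.

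Of 6 probe sets for iron storage, 1 was higher and 2 were lower, beside 3.35% and 13.0% of all probe sets. fer1, a ferritin, read 7.43, 6.29 and 6.09 in –Fe–Zn roots, against 9.62, 9.49 and 9.52 in –Zn roots. The difference was −2.94 ± 0.39, or 7.69-fold lower (adjusted p = 0.014), and every –Fe–Zn array lay more than 2 log2 units below the –Zn arrays. Without any one –Zn array the adjusted p exceeded 0.05, up to 0.068. One probe set of fer2 differed by −0.93 ± 0.23 without overlap of the groups (adjusted p = 0.069; −1.17 and 0.0022 without replicate 1), and the other lay at or near the floor. A type 2 metallothionein, of the cysteine-rich metal-binding proteins, read 5.28, 6.18 and 5.72 in –Fe–Zn roots and 7.09, 7.17 and 7.35 in –Zn roots, a fall of 1.47 ± 0.25 (adjusted p = 0.027; −1.03 and 0.085 after quantile normalization), and it did not pass without –Fe–Zn replicate 3 or any one –Zn array (adjusted p up to 0.11). The third call lay at the floor: mtl2 read 2.31 on each –Fe–Zn array and 2.24 to 2.27 in –Zn roots, a difference of 0.06 that turned to −0.05 after quantile normalization. The second mtl2 probe set was at the floor throughout.

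Proteins that contain iron moved in both directions. The list for heme and iron-sulfur proteins also holds the alternative oxidases and lipoxygenases. Of its 32 probe sets, 3 were higher and 7 were lower (3.35% and 13.0% over all probe sets), with a median of 0.00, and quantile normalization gave 5 and 5. Aox, the alternative oxidase that passes electrons from ubiquinol straight to oxygen in mitochondria, read 10.61, 10.29 and 10.26 in –Fe–Zn roots, against 6.72, 6.54 and 6.50 in –Zn roots. Its rise of 3.80 ± 0.13 (13.9-fold, adjusted p = 0.00075) was many times the spread of either group. Ferrochelatase, which inserts iron into heme, rose by 1.70 ± 0.11 (adjusted p = 0.0027), with 7.32, 7.15 and 7.17 in –Fe–Zn roots and 5.40, 5.72 and 5.42 in –Zn roots. CAT3, a catalase, rose by 2.03 ± 0.32 (adjusted p = 0.021), a call lost without –Fe–Zn replicate 3 or any one –Zn array (up to 0.096).

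The falls were led by the peroxidase PER66, which was near the floor in –Fe–Zn roots at 2.41, 2.38 and 2.38 and read 5.86, 5.66 and 5.74 in –Zn roots (difference −3.36 ± 0.06, adjusted p = 0.00017). FDX6, a ferredoxin, read 8.34, 7.68 and 7.27 in –Fe–Zn roots, against 10.49, 10.61 and 10.56 in –Zn roots, and fell by 2.79 ± 0.30 (adjusted p = 0.008). Both probe sets of the lipoxygenase lox1 fell, by 1.67 and 0.96. The sulfite reductase sir fell by 1.59 (adjusted p = 0.0062), the peroxidase PER1 by 1.65 (adjusted p = 0.017; 0.051 after quantile normalization) and the haemoglobin Hb2 by 1.39 (adjusted p = 0.048; 0.12 after quantile normalization and 0.067 without replicate 1). The proteins that fell thus included electron carriers, peroxidases and an oxygen-binding protein, beside a rise of the oxidase and of the last enzyme of heme synthesis.

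Among 44 probe sets for redox defence without heme, 5 were higher and 3 were lower (3.35% and 13.0% over all probe sets). All 8 were glutathione S-transferases, which join glutathione to reactive compounds and make up most of this list. gst31 read 6.43, 7.85 and 7.71 in –Fe–Zn roots, against 2.94, 3.40 and 3.24 in –Zn roots, the largest rise of the family at 4.14 ± 0.45 (adjusted p = 0.0082). Its other 3 probe sets differed by 1.01, 1.07 and 0.54 and did not pass (the second did without replicate 1, at 1.46 with an adjusted p of 0.017), and the bright one bears the suffix by which the manufacturer marks probes that may also read related transcripts. GST39 rose by 1.43 and GST38 by 1.25, while gst30 fell by 2.15 and gst11 by 1.67. The calls of GST39 and gst30 were lost without any one –Zn array, with adjusted p-values up to 0.15 and 0.16, and also without –Fe–Zn replicate 1 or 3 for GST39 and replicate 2 for gst30.

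Among probe sets without a gene in the annotation, the 2 largest rises were 7.32 and 6.21 on the log2 scale, and the 2 largest differences downward were −5.54 and −5.20. Of 1108 annotated genes, 62 passed the test higher with no overlap between the groups (5.60%) and 178 lower (16.1%), against 3.35% and 13.0% of all probe sets by the same rule.

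Among these genes the rise was largest in cyclotide, which encodes a small cysteine-knot peptide. It read 10.07, 11.65 and 11.58 in –Fe–Zn roots, against 4.42, 4.38 and 4.43 in –Zn roots, a difference of 6.69 ± 0.49 (103-fold, adjusted p = 0.0033). Small heat shock proteins rose as well. hsp18f read 7.88, 8.69 and 8.70 in –Fe–Zn roots and 4.80, 4.17 and 4.38 in –Zn roots (3.97 ± 0.31, adjusted p = 0.0038), and hsp18c rose by 2.62 ± 0.43 (adjusted p = 0.023). Without –Fe–Zn replicate 3 or any one –Zn array hsp18c did not pass (up to 0.099). plr354a read 11.21, 11.32 and 11.34 on the –Fe–Zn arrays, against 8.29, 8.32 and 8.30 on the –Zn arrays, and its second probe set rose by almost the same amount (2.99 and 2.83).

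Further down the rises stood genes of several metabolic routes. thi1-2, of thiazole synthesis for thiamine, rose by 2.20 ± 0.14 (adjusted p = 0.0023) and sps1, a sucrose phosphate synthase, by 1.87 ± 0.12 (adjusted p = 0.0023). RCP1, a root cap protein, rose by 2.16 ± 0.42 (adjusted p = 0.037), which held only without –Fe–Zn replicate 1 when single arrays were left out (adjusted p otherwise up to 0.13). lg3, a knotted-like homeobox gene, read 4.94, 4.90 and 5.06 in –Fe–Zn roots and 2.53, 3.31 and 2.95 in –Zn roots (2.04 ± 0.22, adjusted p = 0.0079).

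Pyruvate decarboxylase, the first enzyme of ethanol fermentation, had isoforms that moved in opposite directions. pdc1 was at the floor, 2.24, on all –Fe–Zn arrays and read between 7.73 and 8.01 in –Zn roots, so that it was at least 51.1-fold lower (adjusted p = 0.00015). pdc2 was at the floor on all –Zn arrays and read 4.05, 5.12 and 5.02 in –Fe–Zn roots, at least 5.62-fold higher (adjusted p = 0.012; 0.061 to 0.064 without any one –Zn array). These probe sets were above background in one group only, but others of the same genes were not. The second pdc1 probe set was near the floor in both groups. Another of pdc2 read between 2.51 and 3.53 in –Fe–Zn roots and between 2.94 and 3.56 in –Zn roots (difference −0.21, adjusted p = 0.71), and its other 2 were at or near the floor.

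Of the falls, pht7, a phosphate transporter, read 5.57, 4.24 and 4.06 in –Fe–Zn roots, against 9.23, 9.26 and 9.23 in –Zn roots (−4.61 ± 0.45, adjusted p = 0.0065). ivr2, a vacuolar invertase that cleaves sucrose, read 4.11, 2.75 and 3.67 in –Fe–Zn roots, against 7.12, 7.39 and 7.39 in –Zn roots (−3.80 ± 0.39, adjusted p = 0.0072). Both were more than 10-fold lower, with no array of one group near the other. RPS21, a protein of the small ribosomal subunit, read 7.70, 9.93 and 9.42 on the –Fe–Zn arrays, against 12.34, 12.09 and 12.22 on the –Zn arrays (−3.21 ± 0.64, adjusted p = 0.039), and its call was lost without –Fe–Zn replicate 3 or any one –Zn array (up to 0.14).

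The remaining falls were of several kinds. nfa104, a nucleosome assembly factor, fell by 2.77 ± 0.34 and its second probe set by 2.81. kin11, a kinesin-related gene, fell by 2.69 ± 0.46, IDDveg9, a zinc finger gene of the INDETERMINATE domain family, by 2.83 ± 0.35, and the growth co-activator AN3 by 2.38 ± 0.14 to near the floor. nar fell by 2.29 ± 0.07. nrx1, a nucleoredoxin, and frk1, a fructokinase, fell by 2.21 and 2.20, and both did not pass after quantile normalization (adjusted p = 0.073 and 0.064). The calls of kin11, nrx1 and frk1 were lost without –Fe–Zn replicate 3 or any one –Zn array (up to 0.12), that of IDDveg9 without any one –Zn array (up to 0.06) and that of nfa104 without –Zn replicate 2 (0.056).

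**Figure D3:**
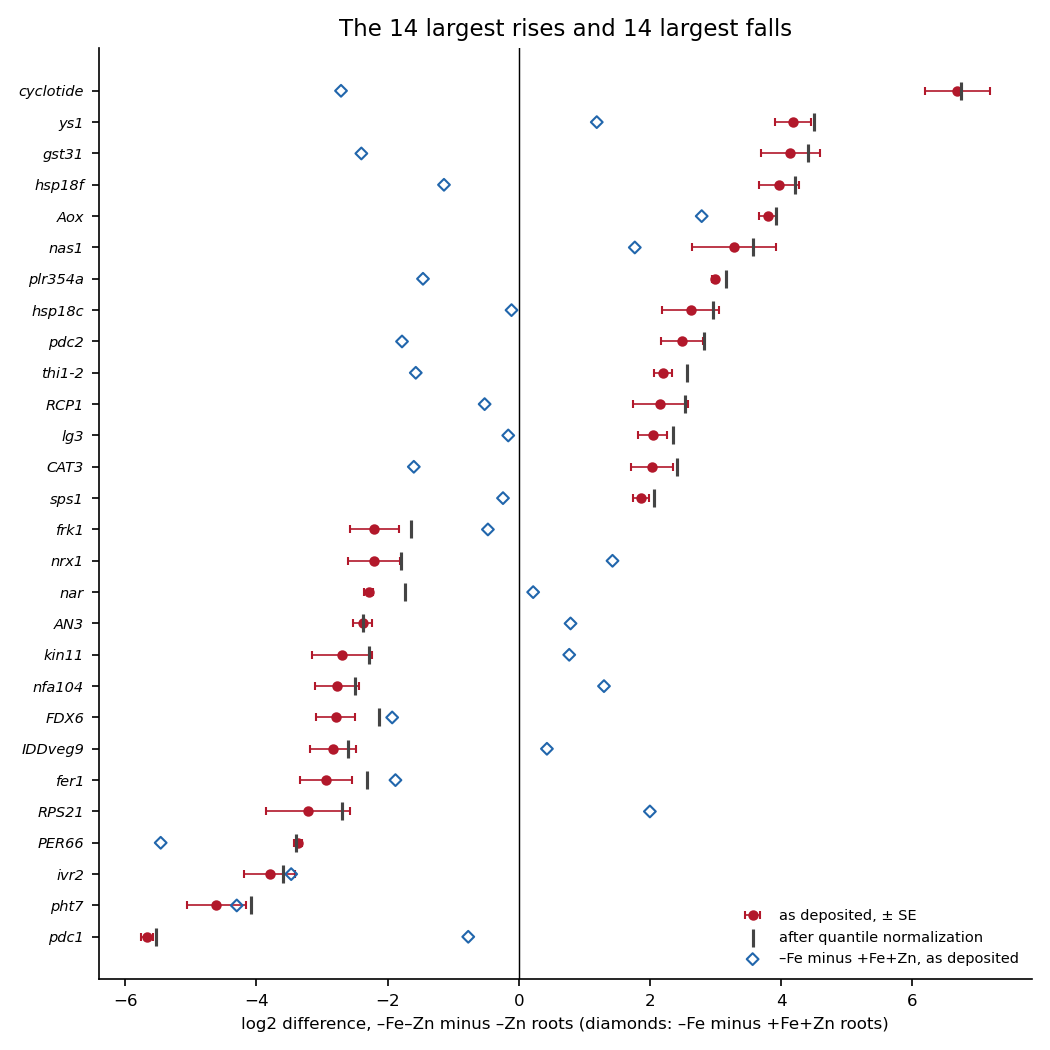
Log2 difference (x axis) of the 14 annotated genes with the largest rises and the 14 with the largest falls in –Fe–Zn against –Zn roots. Circles show the value as deposited ± SE, vertical ticks the value after quantile normalization and open diamonds –Fe minus +Fe+Zn roots. All 28 keep their side of 0 after quantile normalization. The diamonds of many genes lie on the opposite side, among them cyclotide, gst31, hsp18f, plr354a, CAT3, RPS21, nfa104 and AN3. Those of others, such as ys1, Aox, fer1, pht7 and ivr2, lie on the same side.

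Members of the other gene lists are summarised against the background of 3.35% higher and 13.0% lower. Over the 27 lists, 24.3% of 474 members were called. Of the genes of cell division, 11 of 29 probe sets for histones and the cell cycle were lower and none was higher, with a median of −0.69 (6 lower and −0.47 after quantile normalization). PCNA, the sliding clamp of DNA replication, read 9.70, 8.58 and 8.80 in –Fe–Zn roots, against 10.93, 11.08 and 10.92 in –Zn roots (−1.95 ± 0.33, adjusted p = 0.025; 0.078 after quantile normalization). orc2, of the origin recognition complex, fell by 2.13, the mitotic inhibitor kinase wee1 by 1.88 and both probe sets of the kinase cdc2 by 1.69 and 1.20. PCNA and orc2 did not pass without –Fe–Zn replicate 2 or 3 or any one –Zn array, with adjusted p-values up to 0.11 and 0.15.

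Cytosolic ribosomal proteins were lower for 9 of 28 probe sets and higher for none, with a median of −0.71 (5 lower and −0.31 after quantile normalization). Bright probe sets were lower more often in general: of all with a mean log2 value of 9 or more, 29.3% were lower, and of the 21 ribosomal ones among them 8 were (38.1%). Beside RPS21, 1 probe set of rps6 fell by 2.38 ± 0.26 and another by 0.33, and rpl30 read 10.07, 9.90 and 10.29 in –Fe–Zn roots and 11.22, 11.18 and 11.42 in –Zn roots (−1.19 ± 0.13, adjusted p = 0.0079; 0.06 after quantile normalization). The acidic stalk protein gene arpp2a-3 fell by 0.93.

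Of 13 probe sets for cellulose synthases, 5 were lower and none was higher, with a median of −0.48 (2 lower and 0.00 after quantile normalization). CesA-2 read 7.26, 7.37 and 7.58 in –Fe–Zn roots and 8.69, 9.03 and 8.79 in –Zn roots (−1.43 ± 0.13, adjusted p = 0.0055), and CesA-8 fell by 1.34. Of 21 tubulin probe sets, 6 were lower and none was higher, with a median of −0.74 (4 lower and −0.32 after quantile normalization). With a mean log2 value of 5 or more, 5 of 12 cellulose synthase, 6 of 15 tubulin and 7 of 14 histone and cell cycle probe sets were lower, and 23.3% of all probe sets. The brighter and dimmer probe sets of tub6 fell by unequal amounts, 1.22 and 2.91, and TUBB2 fell by 1.40 (adjusted p = 0.051 and 0.05 without –Zn replicates 2 and 3).

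Aquaporins, the water channels, moved in both directions. Of 36 probe sets, 6 were higher and 5 were lower, and the counts were the same after quantile normalization. The rises were all of plasma membrane channels and small: 4 of 5 probe sets of PIP1-3 rose by 0.58 to 0.79 (the fifth was at the floor), inra1(tmp) by 0.63 and pip by 0.65. The brightest PIP1-3 probe set read 13.08, 13.31 and 13.14 in –Fe–Zn roots, against 12.44, 12.35 and 12.35 in –Zn roots. TIP2-2 and TIP2-1, channels of the vacuolar membrane, fell by 2.13 ± 0.12 and 1.54 ± 0.11, TIP4-4 by 0.92, NIP3-1 by 0.61 and the plasma membrane channel pip2c by 1.95. NIP3-1 did not pass after quantile normalization (−0.24, adjusted p = 0.37). Of 7 probe sets for vacuolar proton pumps, 2 were higher and none was lower. Both belong to the pyrophosphatase H+-PPase, which rose by 1.43 ± 0.23 (8.75, 9.55 and 9.11 in –Fe–Zn roots and 7.60, 7.63 and 7.88 in –Zn roots, adjusted p = 0.023) and by 0.90. The second did not pass after quantile normalization (adjusted p = 0.067). Both pyrophosphatase calls were lost without –Fe–Zn replicate 3 or –Zn replicate 2 or 3, the first also without –Zn replicate 1 and the second without –Fe–Zn replicate 2 (up to 0.13), and that of pip2c without –Fe–Zn replicate 3 or –Zn replicate 1 or 2 (up to 0.065).

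Glycolysis and fermentation had 2 probe sets higher and 7 lower of 30 (2 and 4 after quantile normalization). Apart from the decarboxylases, both alcohol dehydrogenases were lower, adh1 by 1.52 and adh2 by 1.25, and gpi, glucose phosphate isomerase, fell by 2.02 ± 0.21 (adjusted p = 0.0076). The 2 probe sets of GAPC1, the cytosolic glyceraldehyde phosphate dehydrogenase, disagreed. One read 8.47, 8.73 and 8.52 in –Fe–Zn roots, against 3.26, 3.93 and 3.13 in –Zn roots (5.13 ± 0.24, adjusted p = 0.0015), and the other differed by −0.03. In –Fe and control roots the first averaged 10.03 and 10.50, so the –Zn arrays were the low ones. The sucrose list held 1 rise, sps1, and 1 fall, ivr2, of 15, and the phosphate transport list 1 fall, pht7, of 3.

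Nitrogen assimilation had 2 rises and 2 falls of 19 probe sets. NRT1/PTR family 3.1, of the nitrate and peptide transporter family, rose by 1.48 ± 0.17 and the glutamine synthetase GLN6 by 1.29 ± 0.26, while gdh1, glutamate dehydrogenase, fell by 1.76 ± 0.16 and nar as above. NRT1/PTR family 3.1 had adjusted p-values of 0.052 to 0.055 without any one –Zn array, and GLN6 passed only without –Fe–Zn replicate 1 (up to 0.14 otherwise). Heat shock and chaperone genes had 2 rises, the small heat shock proteins, and 2 falls of 15. Both falls were probe sets of hsp70-5, which were lower by 0.41 and 0.22 as deposited and differed by 0.00 and 0.23 after quantile normalization, so that no direction is given for it.

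Hormone genes differed by class. Of 14 auxin probe sets, 5 were lower and none was higher (4 lower after quantile normalization), with a median of −0.57. They included AUXIN INDUCED IN ROOT CULTURES 12 (−1.61 ± 0.29), the repressors IAA13 (−1.50 ± 0.19) and IAA24 (−1.06 ± 0.22) and arf1 (−1.08 ± 0.21). arf1 was placed on the list by its symbol alone, so a role in the auxin response was not checked. AUXIN INDUCED IN ROOT CULTURES 12 had −1.10 after quantile normalization (adjusted p = 0.051). Both cytokinin calls upward were of cko3, a cytokinin oxidase that degrades the hormone, which read 5.47, 5.72 and 5.42 in –Fe–Zn roots and 3.97, 4.08 and 4.19 in –Zn roots (1.45 ± 0.10, adjusted p = 0.0033). Downward were the response regulator RR8 (−0.36) and a cytokinin glucosyltransferase (−0.39), of 23 in all. The ethylene-forming oxidase ACO31 rose by 1.55 ± 0.15 (adjusted p = 0.006), while an ethylene receptor fell by 1.41 and an ERF-like protein by 1.05, of 9. After quantile normalization the receptor had −1.04 and did not pass (adjusted p = 0.071). Without –Fe–Zn replicate 1 neither the receptor nor arf1 passed (adjusted p = 0.052 and 0.054). With 1 array left out, the calls of IAA24, arf1, AUXIN INDUCED IN ROOT CULTURES 12, IAA13, the glucosyltransferase, RR8, the receptor and the ERF-like protein were each lost in at least 1 case, most often a –Zn array, with adjusted p-values up to 0.14. None of 15 probe sets for abscisic acid and gibberellin passed in limma.

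The last lists held few calls. The terpene synthase tps6 rose by 1.82 ± 0.18 (adjusted p = 0.007), 1 of 11 terpene and benzoxazinoid probe sets, and the chitinase chn1 rose by 1.54 ± 0.16 (adjusted p = 0.0072), 1 of 17 for defence. No probe set of 6 for lignin or of 10 for flavonoids passed, the highest of these being f3h, the flavanone hydroxylase, at 3.76 with an adjusted p of 0.08 (4.82 and 0.0028 without replicate 1).

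**Figure D4:**
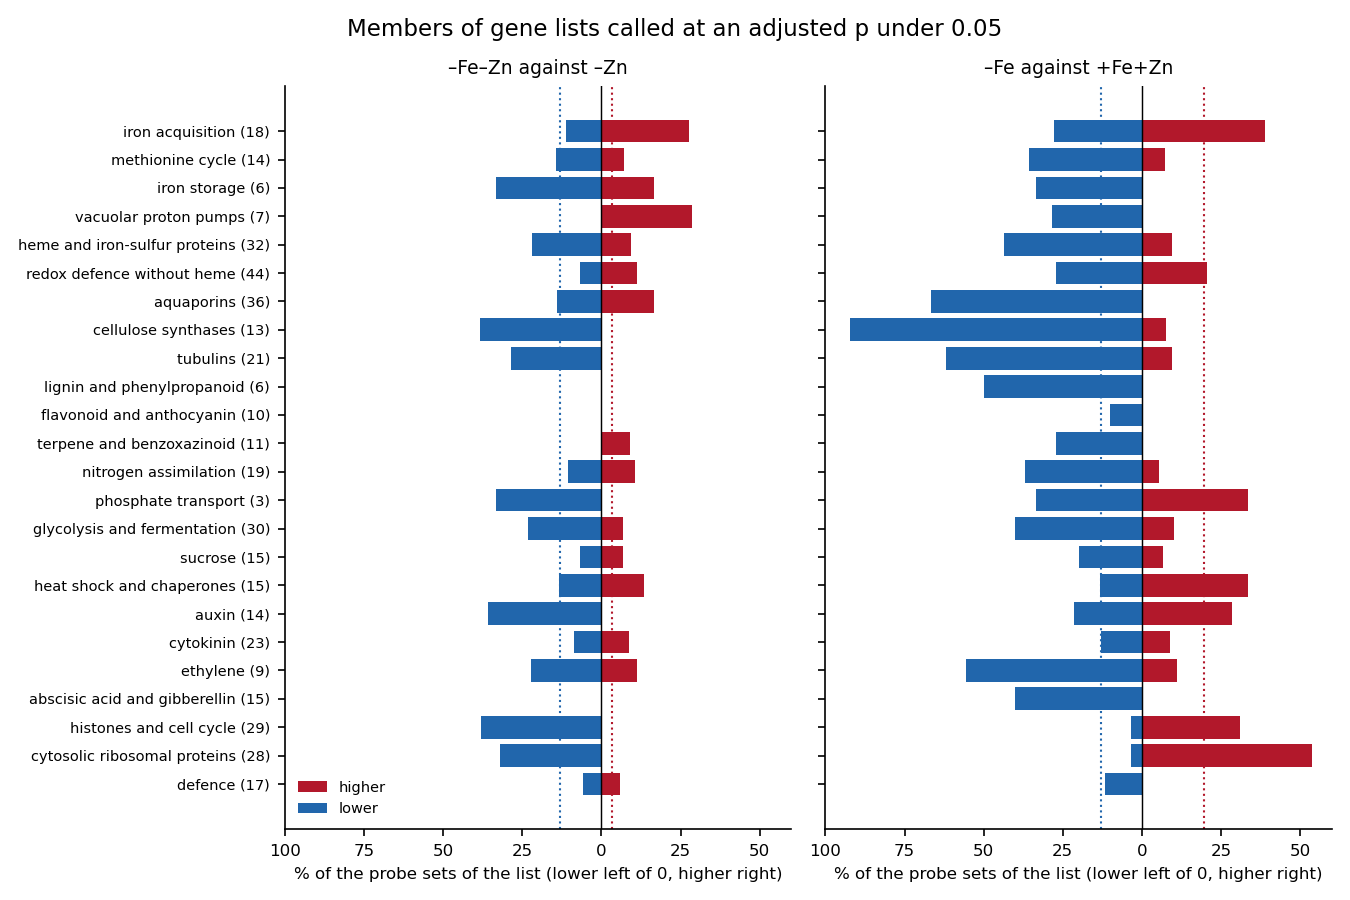
Share of the probe sets of each gene list (number in brackets) that were called at an adjusted p under 0.05, higher to the right of 0 and lower to the left, for –Fe–Zn against –Zn roots (left panel) and –Fe against +Fe+Zn roots (right panel). Dotted lines mark the shares over all 17621 probe sets, 3.35% higher and 13.0% lower on the left and 19.5% and 13.0% on the right. Ribosomal proteins and histones have calls only to the left of 0 in the left panel and mostly to the right in the right panel, and aquaporins rise only in the left panel.

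Whether iron withdrawal acted differently without zinc than with it was tested as an interaction, the difference –Fe–Zn minus –Zn less the difference –Fe minus control, over the 12 root arrays. The 2 iron effects share no arrays. They are defined by the array titles, with which the study's table of fold changes conflicts. The interaction was positive for 1531 probe sets (8.69%) and negative for 4004 (22.7%). After quantile normalization the counts were 2255 and 2877, so the surplus of negative interactions was smaller there. In zinc-fed roots, 3440 probe sets rose on iron withdrawal (19.5%) and 2286 fell (13.0%). Of the 2875 probe sets called without zinc and the 5726 called with zinc, 1578 were called in both, 85 higher in both and 435 lower in both. Calls that matched in direction were 18.1% of the first list and 9.08% of the second (16.1% and 8.06% after quantile normalization). Opposite calls were 191 higher without zinc but lower with it and 867 the reverse. After quantile normalization these were 379 and 413, and 169 were higher in both and 285 lower in both. Over all probe sets the 2 effects had a correlation of −0.09, a description across probe sets that are not independent.

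The iron genes split into those that moved alike under both zinc supplies and those that did not. fer1 fell by 2.94 without zinc and by 1.88 with it, and the interaction of −1.07 did not pass (adjusted p = 0.084). NAS3 fell by 2.67 with zinc (interaction 0.41, adjusted p = 0.33), and the difference for nas1 was 1.77 with zinc (interaction 1.51, adjusted p = 0.14). pht7 (−4.30 with zinc) and ivr2 (−3.47) likewise had interactions that did not pass, −0.32 each. A p that misses the threshold does not show that the 2 effects are equal.

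ys1 rose by 4.18 without zinc and by 1.19 with it, an interaction of 2.99 (adjusted p = 0.00052). The metal ion transmembrane transporter rose by 2.64 without zinc and by 1.25 with it (interaction 1.39, adjusted p = 2.8e-05). The oligopeptide transporter differed by 0.09 with zinc, where its call was absent (interaction 2.73, adjusted p = 0.0008). Aox rose by 2.79 with zinc and had an interaction of 1.01 (adjusted p = 0.0036). By the array titles, the response of these genes to iron withdrawal was larger where zinc was also withheld.

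Opposite directions were seen in NRAMP1, which fell by 1.02 without zinc and rose by 0.55 with it (interaction −1.57, adjusted p = 1.9e-05; −0.97 and 0.00022 after quantile normalization). The ferric-chelate reductase differed by 0.06 without zinc and rose by 1.46 with it (interaction −1.40, adjusted p = 0.0087; 0.066 after quantile normalization). The type 2 metallothionein differed by −1.47 without zinc and by −0.07 with it (interaction −1.41, adjusted p = 0.0042, and 0.055 after quantile normalization). Among the 18 iron acquisition probe sets, 6 interactions were positive and 2 negative (8 and 1 after quantile normalization). Over all probe sets 8.69% were positive and 22.7% negative.

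The largest positive interactions belonged to genes that rose in zinc-deficient roots and fell in zinc-fed ones, apart from HRGP. cyclotide had 9.40 (adjusted p = 4.3e-06), with means of 11.10 in –Fe–Zn, 4.41 in –Zn, 6.98 in –Fe and 9.69 in control roots. gst31 had 6.54, hsp18f 5.11, plr354a 4.45 and pdc2 4.27. Their levels in roots without both metals were as high as in control roots or higher, except plr354a, at 11.29 in –Fe–Zn and 11.32 in control roots, and were lower in roots without zinc alone, except hsp18f, at 4.45 in –Zn and 4.46 in control roots. HRGP, a hydroxyproline-rich cell wall protein, had 5.23. It averaged 3.11 in –Fe–Zn, 2.35 in –Zn, 2.33 in –Fe and 6.80 in control roots, and its difference of 0.76 without zinc did not pass.

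Negative interactions were led by RPS21, at −5.21 (adjusted p = 0.00045), which fell by 3.21 without zinc and rose by 2.00 with it. pdc1 had −4.90, nfa104 −4.07, nrx1 −3.64, cyc3, a cyclin, −3.52 and kin11 −3.46. All 6 kept the sign after quantile normalization, with values between −4.70 and −2.96. The difference of cyc3 without zinc, −2.16 ± 0.69, did not pass (adjusted p = 0.12, and 0.024 without –Fe–Zn replicate 1).

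Over all 17621 probe sets, 22.7% of interactions were negative and 8.69% positive (2877 and 2255 probe sets after quantile normalization). With zinc 19.5% rose and 13.0% fell. For all probe sets with a mean log2 value from 9 to 11, the median difference was −0.49 without zinc and 0.16 with it. The part of brightness in the counts below was not tested. Of 28 ribosomal probe sets, 15 had a negative interaction and none a positive one (11 and 0 after quantile normalization), and with zinc 15 rose and 1 fell. Of 29 histone and cell cycle probe sets, 15 interactions were negative and none positive (9 and 0), and with zinc 9 rose and 1 fell. Of 36 aquaporin probe sets, 17 interactions were positive and none negative (19 and 1), and with zinc 24 fell and none rose. The PIP1-3 probe set named above averaged 13.17 in –Fe–Zn and 12.38 in –Zn roots, against 10.58 in –Fe and 12.23 in control roots. Of 13 cellulose synthase probe sets, 5 were lower without zinc and 12 with it as deposited. After quantile normalization 2 were lower without zinc, with a median of 0.00. Their interactions were positive for 2 and negative for 1, and for 8 and 0 after quantile normalization.

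**Figure D5:**
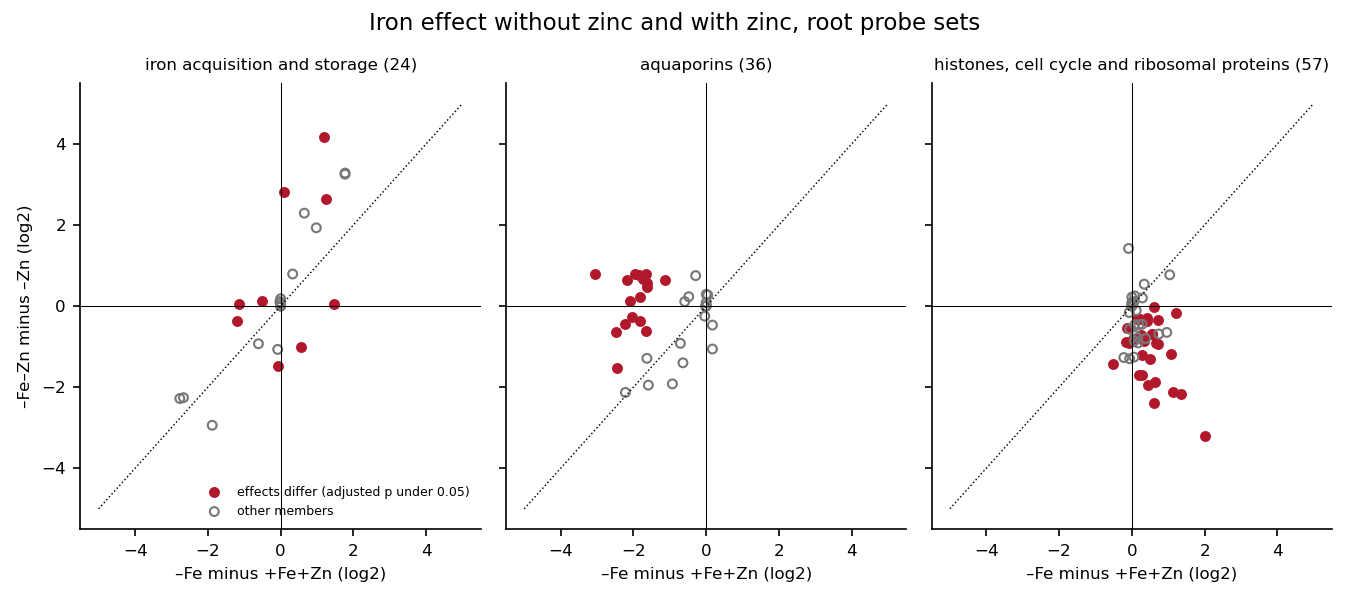
Log2 effect of iron withdrawal without zinc (y axis, –Fe–Zn minus –Zn) against that with zinc (x axis, –Fe minus +Fe+Zn) for the probe sets of 3 groups of lists, on the 12 root arrays. Filled points have an interaction with an adjusted p under 0.05 and the dotted line marks equal effects. Most aquaporins lie left of 0 and above the line, and most filled points of the third panel lie right of 0 and below it.

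In shoots, –Fe–Zn against –Zn gave 1039 probe sets higher (5.90%) and 1027 lower (5.83%), and the effects correlated with those of roots at 0.16 over all probe sets. The oligopeptide transporter (5.61), Aox (4.36), ys1 (3.44), plr354a (3.08) and fer1 (−2.63) changed the same way in both organs, whereas CAT3 (−1.74) and sps1 (−3.17) fell in shoots and rose in roots.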

How the data were processed

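Maize root and shoot RNA under 4 combinations of iron and zinc supply was read on 24 Affymetrix arrays, grouped here by their titles. The authors deposited log2 values, 1 for each probe set on each array, which their methods derive with GCRMA. The tools listed by the submitters are affy, RMA and limma, with no versions given, and the background correction behind the values is therefore unsettled. Raw intensities and scan dates were not used, so precision rests on the number of arrays.

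Values were used as deposited. In R 4.3.3 with limma 3.58.1, lmFit and eBayes were run on the 6 arrays of root –Fe–Zn and root –Zn, without covariates, on all 17621 probe sets but the manufacturer's 113 controls. The interaction was a contrast over 12 root arrays with 4 group means. Counts used the cut-off of the methods, and single genes, list members and interactions a Benjamini-Hochberg adjusted p under 0.05. With 3 arrays against 3, an exact permutation test cannot go below 0.10, so none was used. The fit was tested on simulated data.

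The array annotation gave 1452 probe sets 1 gene, 1 several and 16281 none. Probe sets that the study names in its list of candidate genes took that name. Of these, 65 have no annotated gene, and that list was chosen by its authors on these samples. The genes named are, among annotated genes called with no overlap of the groups, the 14 with the greatest rise and the 14 with the greatest fall (the brightest probe set standing for a gene), all probe sets of the lists for iron acquisition, methionine cycle and iron storage, the 6 largest interactions in each direction, and examples of the other lists. GAPC1, f3h and the unannotated extremes were chosen after their values were seen. Members and lists were chosen with earlier results of these data known. A group with all 3 arrays within 0.05 of the floor counted as not above background. Alternatives were quantile normalization, median centring, a limit on dim probe sets (mean under 2.99), fits over 12 or 24 arrays, array weights, a trend in the variance, a replicate block and leaving out each array. –Fe against control after quantile normalization was added after the data were seen.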

Additional observations from a re-analysis of the deposited data

Results flagged for a closer look

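By the array titles, the effect of iron withdrawal differed by zinc supply, positively for 1531 probe sets and negatively for 4004. The test was of the difference itself, the interaction over 12 root arrays in limma. The largest differences between the 2 iron effects were 9.40 for cyclotide, 6.54 for gst31, 5.23 for HRGP, 5.11 for hsp18f, 4.45 for plr354a and 4.27 for pdc2 on the log2 scale. In the other direction they were −5.21 for RPS21, −4.90 for pdc1, −4.07 for nfa104, −3.64 for nrx1, −3.52 for cyc3 and −3.46 for kin11.

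Iron genes met the same test. The differences were 2.99 for ys1, 2.73 for the oligopeptide transporter, 1.39 for the metal ion transmembrane transporter, 1.19 for the heavy metal transport protein, 0.83 for ZIP4 (zinc transporter 4) and 0.63 for the metal ion transporter. They were −1.57 for NRAMP1, −1.41 for the type 2 metallothionein and −1.40 for the ferric-chelate reductase, of which the last 2 had adjusted p-values of 0.055 and 0.066 after quantile normalization.

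Signal outside the main measurement was seen in control probe sets of the manufacturer. A BioB spike probe set was 8.67 higher and an 18S ribosomal RNA probe set 4.54 higher in –Fe–Zn than in –Zn roots, and the part of these differences in the gene results was not tested. Handling of the –Fe–Zn arrays cannot be told apart from their treatment.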

How the results depend on the processing

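Quantile normalization gave 746 probe sets higher and 862 lower, median centring 756 higher, and an adjusted p under 0.05 together with 2-fold 267 higher. Median centring, which shifted the median interaction by 0.26, gave 10989 probe sets with an interaction, 68.1% of them positive, against 5535 and 27.7% as reported (43.9% positive after quantile normalization). After quantile normalization mtl2 had −0.05 and hsp70-5 0.00 and 0.23, and after median centring the second hsp70-5 probe set had 0.02. Counts with adjusted p-values, 590 higher and 2285 lower as reported, moved by more than 1.5 times with all 24 arrays (1618 and 4684), with the 12 root arrays (1214 and 4116), with array weights (286 and 904), without –Fe–Zn replicate 1 (1235 and 3802) and without –Zn replicate 1 (284 and 1030), 2 (259 and 950) or 3 (270 and 1051). Calls among 474 list members were 115, or 98 of 367 genes with 1 probe set per gene. The cause of these shifts was not tested. Leaving out 1 array gave 320 to 592 probe sets higher, 1444 to 2257 lower and 4780 to 7547 interactions. Of 87 calls among the named probe sets checked, 67 held after quantile normalization, 82 after median centring, 84 with all 24 arrays, 53 with array weights, 45 to 83 without 1 array and 29 with the replicate block.

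Deviations of same-numbered –Fe–Zn and –Zn arrays correlated at −0.083, 0.135 and −0.130. Those of same-numbered –Zn and control root arrays correlated at 0.034, 0.279 and 0.268. With so few arrays these values cannot decide whether replicate numbers pair the samples. With the replicate block, 348 probe sets were higher, 1578 lower and 5232 had an interaction, and after adjustment 140 were higher and 535 lower. The number of arrays, and the floor for dim probe sets, limit the precision.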

Other observations

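Among other control probe sets, BioC averaged 14.03 in –Fe–Zn and 9.53 in –Zn roots, and a dap probe set 11.16 in –Fe–Zn and 2.87 in –Zn roots. The 3′ probe set of actin averaged 8.80 in –Fe–Zn and 9.77 in –Zn roots. The 18 probe sets of seed proteins (zeins, globulins and an oleosin) had array means of 2.41 to 2.64 in –Fe–Zn roots, where 8 were not above background, and 2.36 to 2.38 in –Zn roots, where 17 were not. Between –Fe–Zn replicates 2 and 3, 876 probe sets differed by more than 2-fold, against 2909 and 2730 between replicate 1 and the others.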
